A study of Mus musculus with 7 samples.

Results

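The regions described here are NF-kB ChIP-seq regions that crowd around a small set of mouse genes. They come from a table of 93611 regions, each assigned to the gene with the nearest transcription start site (TSS). Genes named in 30 or more rows were kept, and of their regions those within 100 kb of the start site. This gave 4322 regions (4.62% of all regions) around 182 genes (0.983% of the 18522 genes named). The same genes carried 2888 further regions beyond 100 kb, which were left out. The median gene of the table had 3 regions, and the gene with the most, Pik3r1, had 83. The threshold cut through a continuum: 20 genes had exactly 30 regions and 18 had 29, and the median RelA level in wild-type cells was 7.40 RPKM (reads per kilobase of region and per unit of sequencing depth) over the regions of the former and 6.88 RPKM over those of the latter.

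The cells were bone marrow-derived dendritic cells (BMDCs) from C57BL/6 mice, grown with GM-CSF (20 ng/ml) plus IL-4 (10 ng/ml). RelB was immunoprecipitated from wild-type (WT) and RelBko cells with no stimulation (0 h) and 1 h after lipopolysaccharide (LPS, 10 ng/ml), and RelA was immunoprecipitated from WT and RelBko cells 1 h after LPS. A WT input library gave the background, and the labels used here give no time for it. The labels do not say how the RelBko allele was made or how many mice were pooled, and the product named beside LPS in the treatment text is a CpG oligonucleotide. Each of the 7 groups was 1 library. No difference below therefore has a replicate check, no p-value is given, and intervals are exact 95% intervals from read numbers that cover counting error only.

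NF-kB proteins bind DNA as dimers at kB sites, and RelA and RelB are among the members with transactivation domains. RelA is usually linked to the canonical and RelB to the non-canonical pathway. In dendritic cells RelB is abundant and is needed for their maturation. Many genes of immune cells are controlled from several distant enhancers as well as from the promoter, so 1 gene can be surrounded by many separately bound regions. ChIP-seq measures how often a region was recovered with the antibody, and it does not tell which gene a region acts on or whether that gene was expressed.

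The promoters of 4 of these genes are shown because each gene stands at an end of a comparison below, has 1 start site in the sequence table, and has a ChIP region at that start. Il12b and Klf7 had among the highest median changes of RelB with LPS, Slc7a11 among the highest ratios of RelB to RelA, and Dip2c among the lowest. Each sequence is the 250 bases before the start site, from RefSeq on build GRCm38.p6, read 5′ to 3′ on the gene's strand. Capitals mark the short motifs GGGAA and TTCCC on either strand, and in Dip2c also the overlapping match to the kB consensus motif.
Il12b promoter (plus strand, chr11:44399813-44400062): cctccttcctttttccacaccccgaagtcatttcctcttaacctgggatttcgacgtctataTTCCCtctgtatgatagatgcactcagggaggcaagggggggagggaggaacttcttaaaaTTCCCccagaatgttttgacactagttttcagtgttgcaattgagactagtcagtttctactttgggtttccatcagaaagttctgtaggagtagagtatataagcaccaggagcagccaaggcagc
Klf7 promoter (minus strand, chr1:64121390-64121639): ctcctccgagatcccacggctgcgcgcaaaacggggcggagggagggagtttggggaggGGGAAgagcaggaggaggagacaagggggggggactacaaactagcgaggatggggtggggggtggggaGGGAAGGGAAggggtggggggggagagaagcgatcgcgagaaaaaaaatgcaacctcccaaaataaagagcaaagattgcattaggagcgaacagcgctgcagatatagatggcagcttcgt
Slc7a11 promoter (minus strand, chr3:50443614-50443863): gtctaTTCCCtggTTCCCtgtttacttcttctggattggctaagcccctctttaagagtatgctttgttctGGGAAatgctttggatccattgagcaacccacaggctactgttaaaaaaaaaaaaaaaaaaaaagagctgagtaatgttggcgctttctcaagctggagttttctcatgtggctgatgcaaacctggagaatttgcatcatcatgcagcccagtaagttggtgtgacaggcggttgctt
Dip2c promoter (plus strand, chr13:9276275-9276524): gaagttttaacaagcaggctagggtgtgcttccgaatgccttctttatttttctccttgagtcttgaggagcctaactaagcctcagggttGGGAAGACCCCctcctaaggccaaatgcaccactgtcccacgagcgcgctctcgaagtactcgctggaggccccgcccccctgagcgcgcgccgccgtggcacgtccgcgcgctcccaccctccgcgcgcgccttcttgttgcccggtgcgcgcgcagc

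The windows held 2 short motifs in Il12b, 3 in Klf7, 3 in Slc7a11 and 1 in Dip2c. The Dip2c short motif began 159 bases before the start and overlapped the only kB match of the 4 windows. Over all 32851 promoters of 300 bases in the table, 62.7% held a short motif and 8.46% a kB match. Of the genes with 30 or more regions 137 had a promoter sequence, and a kB match was found for 19 of them (13.9%). Over all 27025 genes the share was 9.55%. The 137 genes had 219 promoters, and the 27025 genes had the 32851 promoters named above. A share by gene can rise with the number of promoters per gene, which was not corrected for. No kB share per promoter is given for the 137 genes, and no excess is read from these shares. These matches are descriptions of letters and were not compared with binding.

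At these 4 start sites RelB in WT cells and RelA in both genotypes lay between 14.1 and 31.8 RPKM. Coordinates of regions are those of the deposited table on build mm9. The Il12b region (chr11:44213229-44213585) had RelB levels in WT cells of 15.4 and 29.6 RPKM at 0 h and 1 h, a 1.92-fold rise (interval 1.59 to 2.31). RelA there was 28.7 RPKM in WT and 31.8 RPKM in RelBko cells, and input was 1.27 RPKM. Il12b encodes the p40 subunit shared by IL-12 and IL-23. The Klf7 region (chr1:64167713-64168160) had 15.98 and 25.8 RPKM of RelB at 0 h and 1 h, a 1.61-fold rise (1.36 to 1.91), with RelA at 20.9 RPKM in WT and 25.7 RPKM in RelBko cells. Klf7 is a Krüppel-like transcription factor. The Slc7a11 region (chr3:50247385-50247754) had 14.4 RPKM of RelB at 0 h, 14.5 RPKM at 1 h and 18.1 RPKM of RelA in WT cells. The Dip2c region (chr13:9275678-9276258) had 14.1, 14.5 and 20.0 RPKM in the same libraries, a RelB to RelA ratio of 0.728 (0.602 to 0.882). RelB in RelBko cells at 1 h was low at all 4, at 2.01, 2.40, 1.11 and 1.41 RPKM.

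The 10 genes with the most regions within 100 kb encode proteins of varied roles. Foxp1, a forkhead transcription factor, had 70 regions, Creb5, of the CREB family, 61, and Pde4b, which breaks down cyclic AMP, 51. Dock10, a guanine nucleotide exchange factor, had 48. The others of the first 10 were Sh3kbp1 (47), an adaptor of receptor endocytosis, Sgms1 (46), a sphingomyelin synthase, Lpp (45), a LIM-domain protein of focal adhesions, Vav3 (42), also an exchange factor, Jazf1 (41), a zinc finger protein, and Elmo1 (40), a partner of DOCK proteins. The count also depends on how long a stretch has that gene's start as its nearest, which was not corrected for: the member regions of a gene spanned 30.8 to 673 kb, with a median of 175 kb, and 28 pairs of the genes, 52 genes in all, were neighbours.

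Of 11 lists of genes by role, every list had at least 1 member among the 182 genes, which are 0.983% of all genes named. The lists were chosen with earlier results of these data known, so a count above that share is no evidence of enrichment. The NF-kB pathway had 1 of 26 (Nfkb1, the p105/p50 subunit), ETS and RUNX factors 3 of 22 (Etv6, Runx1, Runx2), and AP-1, BACH and MAF factors 4 of 21 (Bach2, Fosl2, Jun, Maf). Other myeloid and lymphoid transcription factors had 14 of 70, among them Foxp1, Jazf1 and Mitf. Nuclear receptors and coregulators had 4 of 29 (Nr3c1, Nr4a3, Rarb, Thrb), phosphodiesterases 2 of 13 (Pde4b, Pde4d), and regulators of small GTPases 9 of 65, among them Dock10, Vav3 and Elmo1. Cytoskeleton and membrane traffic genes had 9 of 73, among them Lpp, Tns3 and Septin9. Kinases and phosphatases had 3 of 84 (Fyn, Pik3r1, Prkcb), cytokines, chemokines and their receptors 2 of 63 (Cxcr4, Il12b), and surface and adhesion genes of dendritic cells 3 of 49 (Cd44, Itga4, Nrp2). The 182 symbols included 23 clone or predicted genes and 6 microRNA genes, and 1 symbol kept as a date in the table was read as Septin9 through its RefSeq accession.

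The libraries held 13188833 to 35064429 reads, as the step of the RPKM values gave them. Member regions took 2.11% to 2.54% of the reads of the RelA libraries and the WT RelB libraries, 0.360% and 0.227% of the RelBko RelB libraries at 0 h and 1 h, and 0.167% of input. The median member had 97 reads in the WT RelB library at 0 h, 93 at 1 h and 50 in the WT RelA library, but 11 and 8 in the RelBko RelB libraries. A region counted as enriched at 2 RPKM or more and at least 2-fold over input with 0.5 RPKM added to both. Enriched RelA regions lay within 100 kb of 6 of 6 dendritic cell, 4 of 4 macrophage, 4 of 4 neutrophil, 3 of 4 B cell and 3 of 4 T cell marker genes, so binding near markers did not check the labelled cell type. None of these markers had 30 regions.

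Member regions were 168 to 888 bp wide, and 5 exact widths recurred: 338, 308, 314, 328 and 170 bp together made up 27.3% of the member regions (1179) and 28.0% of all regions. For 4 of the 5 widths a single library led in more regions than the other libraries together. Of the 317 member regions of 308 bp, the WT RelB library at 0 h had the highest enrichment in 240. The WT RelB library at 1 h led in 193 of the 241 regions of 314 bp, the WT RelA library in 166 of the 293 of 338 bp, and the RelBko RelA library in 178 of the 231 of 328 bp. The 97 regions of 170 bp were spread over 5 libraries: WT RelB led in 28 at 0 h and 20 at 1 h, RelA in 16 in WT and 17 in RelBko cells, and RelBko RelB at 0 h in 16. That last library led in 1 of all other members. The sources used here do not say how regions were called. The part of the widths in the results below was not tested. Counts of called members without these 5 widths are given beside the main ones, but none is given by gene, by list or over all regions.

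Levels around these genes were somewhat higher than in the table as a whole, in input too. The median member region had 7.61 RPKM of RelB at 0 h, 8.88 RPKM at 1 h and 7.65 RPKM of RelA in WT cells, against 5.46, 6.28 and 5.89 RPKM over all regions. In RelBko cells the member medians were 1.66 RPKM of RelB at 0 h, 1.17 RPKM at 1 h and 7.54 RPKM of RelA. Over all regions they were 1.49, 1.06 and 5.43 RPKM. Input had 0.966 RPKM over members and 0.903 RPKM over all regions. The part of background in the higher levels of members was not tested. For RelB in WT cells 82.4% and 87.8% of members were enriched at 0 h and 1 h, against 75.9% and 81.7% of all regions. For RelA the shares were 87.4% in WT and 82.7% in RelBko cells, against 82.0% and 75.9%. For RelB in RelBko cells they were 27.6% and 7.94% at 0 h and 1 h, against 24.1% and 6.36%. Few members were promoters: 172 (3.98%, against 10.96% of all regions), while 2272 (52.6%) lay in introns and 1798 (41.6%) between genes. The genes were chosen for having many regions, while the median gene had 1 promoter region and none had more than 4. A low promoter share is therefore largely built into the choice, and nothing about binding at promoters is read from it. For 56 of the 182 genes no member region was a promoter region.

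In every library, input among them, most of the variance over member regions lay within genes. In the WT RelA library 88.7% of the variance of log2(RPKM + 0.5) over the member regions lay within genes and 11.3% between them. The share between genes was 9.58% to 12.6% over the 6 ChIP libraries and 8.28% in input, so this split is not particular to binding. The part of counting error in this split was not tested. A gene's mean over many regions varies less than single regions do, so a low share between genes is partly built into the measure. No share for regions assigned to genes at random is given. The strongest region of a gene was 41.1-fold above its weakest at the median gene in WT RelA. The folds were 75.7 and 48.4 in WT RelB at 0 h and 1 h, 53.4 in RelBko RelA and 7.83 in input. They are ratios of RPKM with nothing added, and regions not enriched in the library were kept. The weakest region of Lpp had 0.0844 RPKM of RelB at 0 h in WT cells, the lowest of all members. Such a fold can set a bound region against one not enriched in that library. The median SD of the log2 level over a gene's regions was 1.33 in WT RelA, 1.47 and 1.41 in WT RelB at 0 h and 1 h, 0.81 and 0.59 in RelBko RelB, and 0.47 in input.

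**Figure D1:**
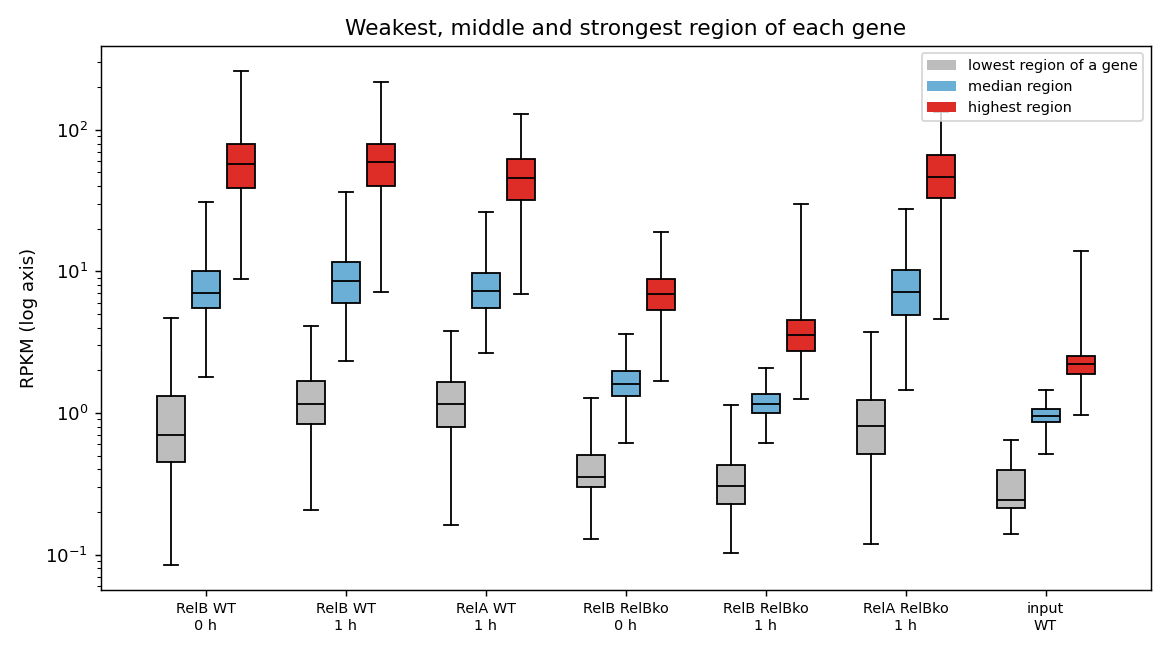
Level of the lowest (grey), median (blue) and highest (red) member region of each of the 182 genes in the 7 libraries, in RPKM on a log axis. Boxes span the quartiles over genes with a line at the median, and whiskers reach the lowest and highest gene; in the WT RelB library at 1 h the gene medians run from 2.33 to 36.4 RPKM, and the RelBko RelB libraries lie far lower.

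Foxp1 shows the range inside 1 gene, which reaches down to regions under the 2 RPKM needed to count as enriched. Its 70 regions ran from 0.554 to 103 RPKM of RelA in WT cells, with a median of 6.69, and from 0.536 to 89.7 RPKM of RelB at 1 h, with a median of 6.60. Its strongest region, in an intron 78.0 kb downstream of the nearest start site (chr6:99138386-99138723), had 65.0 and 89.7 RPKM of RelB in WT at 0 h and 1 h and 103 and 105 RPKM of RelA in WT and RelBko cells. The RelBko RelB libraries had 16.1 and 5.46 RPKM there and input 1.35 RPKM. The region of lowest mean level, also intronic (chr6:98921890-98922217), had 0.536 RPKM of RelB at 1 h and 1.91 RPKM of RelA. The region nearest to a start site of Foxp1 (chr6:99384960-99385320) lay between them, at 23.1 and 28.7 RPKM.

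The widest spread in WT RelA was around Slco3a1, an organic anion transporter, with an SD of 1.92 over 24 regions from 1.21 to 116 RPKM. Zeb1 (1.82), Itga4 (1.80) and Il12b (1.75) followed. Zeb1 is a zinc finger repressor and Itga4 is the alpha 4 integrin subunit. In Itga4 the promoter region (chr2:79095124-79095504) was the strongest, at 74.9 and 85.7 RPKM of RelB at 0 h and 1 h and 99.8 RPKM of RelA in WT cells, and RelA was as low as 0.905 RPKM in an intron (chr2:79142624-79142937). In Il12b the strongest region lay 17.7 kb upstream (chr11:44195619-44196062), at 115 and 135 RPKM of RelB and 81.9 RPKM of RelA, well above the promoter. The narrowest spread was around Gmpr, which encodes GMP reductase, with an SD of 0.68 over 15 regions from 1.66 to 10.9 RPKM. Cd180, a Toll-like surface receptor (0.87), Irf2bp2, a transcriptional corepressor (0.88), and Ankrd44 (0.90) were next.

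**Figure D2:**
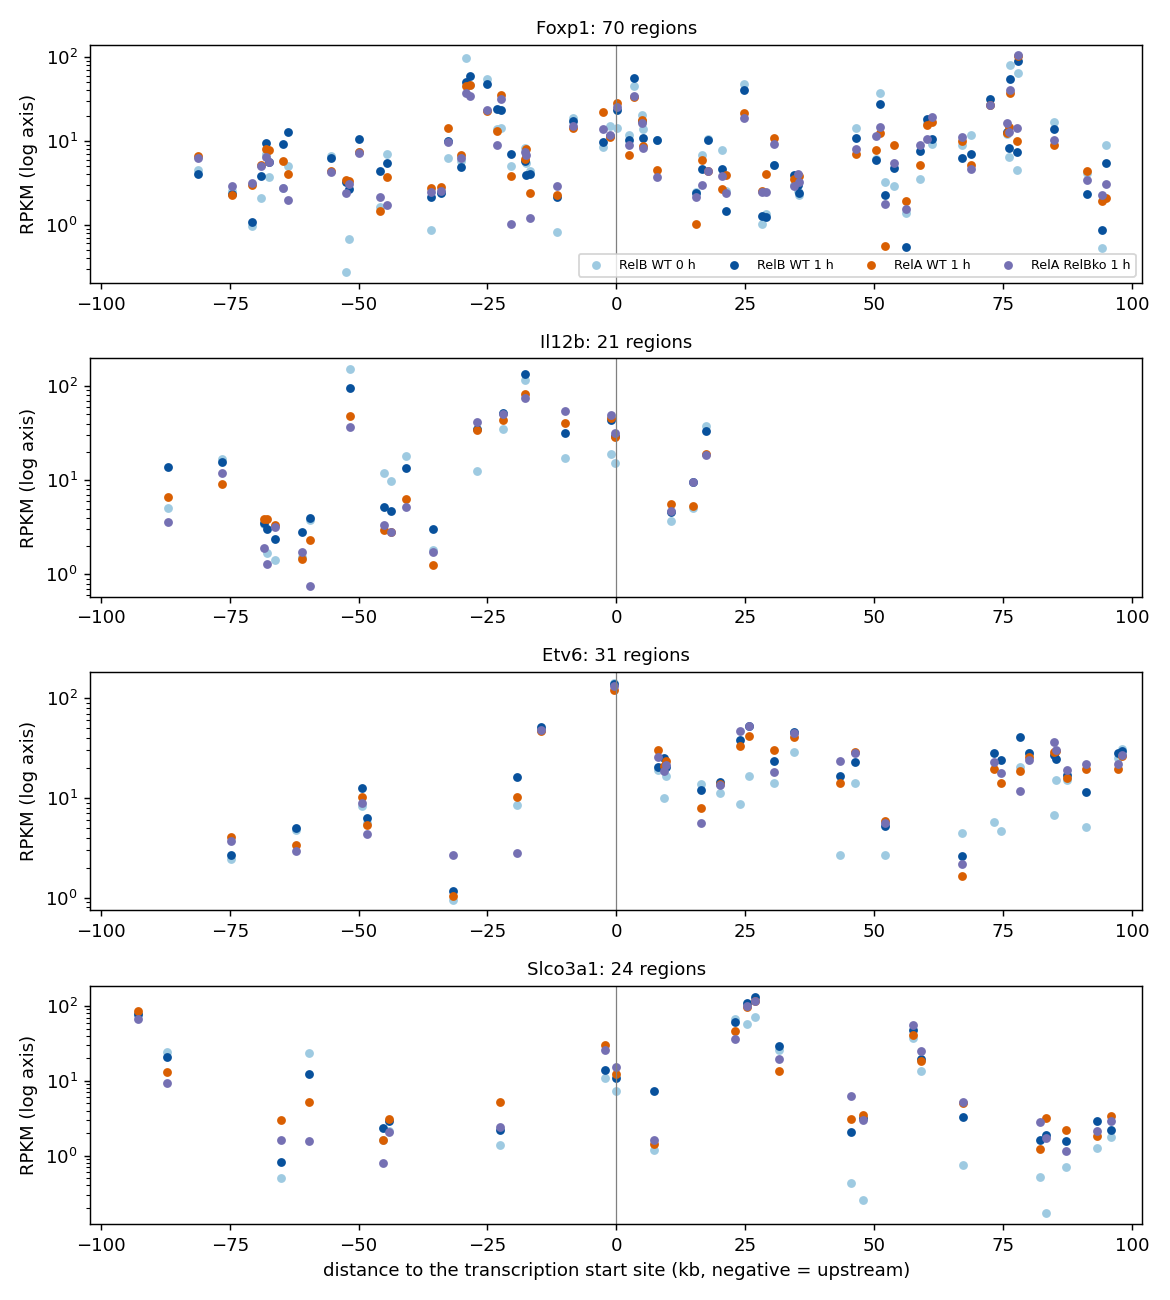
Level of each member region of Foxp1, Il12b, Etv6 and Slco3a1, in RPKM on a log axis, by its distance to the nearest start site of that gene in kb; genes with several start sites have their regions laid over each other. In Etv6 the promoter region stands highest in the 4 libraries drawn, at 122 to 142 RPKM, and in Il12b a region 17.7 kb upstream is above the promoter.

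Start-site regions tended to lie in the upper part of their gene's order in every library, input among them. A region within 1 kb of a start site existed for 147 genes, and it was the strongest of the gene's regions, 22 at the median gene, in 6 of them for WT RelB at 0 h, 7 for WT RelB at 1 h and 16 for WT RelA. The corresponding counts were 37 and 17 for the RelBko RelB libraries at 0 h and 1 h and 22 for input. The median rank of the start-site region within its gene was 7 in WT RelB at both times and 5 in WT RelA. It was 3 and 4 in RelBko RelB at 0 h and 1 h, 5 in RelBko RelA and 6 in input. The upper position is therefore not particular to the WT ChIP libraries, and nothing about binding is read from it. Start-site regions were still above the median of the gene's other regions in 125 of the 147 genes for RelB at 1 h and 127 for RelA, and in 110 for input. Etv6, an ETS-family repressor, was one whose promoter was strongest: the region 477 bp upstream (chr6:133985014-133985468) had 142 and 138 RPKM of RelB at 0 h and 1 h in WT cells, 122 and 133 RPKM of RelA in WT and RelBko cells, and 1.83 RPKM in input. Its RelBko RelB levels, 19.1 RPKM at 0 h and 6.76 RPKM at 1 h, put it above every other member at 0 h.

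Across libraries the regions of a gene kept much of their order. Over the 156 genes with 15 or more members, the median Spearman correlation with WT RelB at 1 h was 0.90 for WT RelB at 0 h, 0.90 for WT RelA and 0.87 for RelBko RelA. It was 0.71 and 0.66 for the RelBko RelB libraries at 0 h and 1 h and 0.35 for input. These values are descriptions over the regions of 1 gene, whose RPKM values share the region's length and sequence. The strongest region was the same one as in WT RelB at 1 h in 118 of 182 genes for WT RelA, 120 for WT RelB at 0 h, 106 for RelBko RelA and 24 for input. The strongest member of all for RelB lay 14.0 kb upstream of Nrp2, a semaphorin and VEGF co-receptor (chr1:62735680-62736034). It had 262 and 217 RPKM of RelB at 0 h and 1 h, and RelA was 103 RPKM in WT and 111 RPKM in RelBko cells.

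RelB ChIP in WT cells was set against RelBko cells, in which the target of the antibody should be missing. Regions were compared where at least 1 of the 2 libraries was enriched, and called at a 2-fold difference or more of RPKM + 0.5. At 1 h, 3677 of 3795 compared members were higher in WT (96.9%, background 95.9%) and 0 were lower (background 0.128%). At 0 h, 3268 of 3577 were higher (91.4%, background 86.0%) and 11 were lower (0.308%, background 0.504%). Every region compared at 1 h was enriched in the WT library, as were 3562 of the 3577 at 0 h, so the choice of regions nearly fixed the direction. Over all 4322 members with no such choice, 3845 were higher at 1 h (89.0%, background 83.9%) and 4 lower (background 0.296%), and 3391 were higher at 0 h (78.5%, background 69.9%) and 25 lower (background 0.880%). Without the recurring widths 2898 of 2963 compared members were higher at 1 h (97.8%) and 2618 of 2804 at 0 h (93.4%), and 0 were lower at either time. All 182 genes had higher regions at both times. The median log2 ratio was 2.75 over members and 2.47 over all compared regions at 1 h, and 2.10 and 1.85 at 0 h. Both libraries were then scaled so that the median of all compared regions was 0. At 1 h, 957 members were higher (25.2%, background 17.7%) and 403 lower (10.6%, background 13.7%). At 0 h, 742 were higher (20.7%, background 15.3%) and 216 lower (6.04%, background 9.84%). The scaled medians of the members were 0.29 and 0.25.

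At 1 h the gene medians ran from 1.54 in Fggy, a carbohydrate kinase, to 3.85 in 5430437J10Rik, among genes with at least 15 compared regions. A630001O12Rik (3.76), 1700016G22Rik (3.70) and Etv6 (3.47) followed at the top, and Ldlrad4 (2.04), the RNA-binding protein gene Celf2 (2.09) and Mdfic (2.14) at the bottom. Scaled, the medians of Fggy (-0.93), Ldlrad4 (-0.43), Celf2 (-0.38) and Mdfic (-0.32) fell below 0. Within Fggy the ratio spanned most of that range. A region 11.6 kb inside the gene (chr4:95257521-95257908) had 29.3 and 1.45 RPKM in WT and RelBko cells, a 20.1-fold difference (11.1 to 40.8). Another at 57.6 kb (chr4:95303556-95303919) had 2.13 and 1.13 RPKM, a ratio of 1.89 (0.809 to 4.90). At 0 h the highest gene medians were those of 1700016G22Rik (2.95), Zc3h12c (2.92), which encodes a zinc finger ribonuclease, 5430437J10Rik (2.81) and Sema6d (2.78), a semaphorin. The lowest were in Tbc1d22a (1.46), Oxr1 (1.498), Tiam1 (1.51), a Rac exchange factor, and Dip2c (1.51).

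Single regions reached far larger ratios at 1 h. In an intron 22.1 kb upstream of the nearest Gas7 start (chr11:67377737-67378074) RelB was 62.8 RPKM in WT and 0.910 RPKM in RelBko cells, 68.9-fold (31.5 to 189). In an intron of Dock10 (chr1:80723439-80723812) it was 78.4 and 1.10 RPKM, 71.4-fold (36.1 to 166). Of the compared members 2 had no excess in WT, both chosen after their values were seen, and of all members 72 had none. In an intron of Filip1l (chr16:57391567-57391904) RelB was 28.8 RPKM in WT and 29.7 RPKM in RelBko cells at 1 h, and input there was 5.61 RPKM, among the 4 highest inputs of all members. In an intron of Cd44 (chr2:102669483-102669650) the levels were 4.61 and 5.19 RPKM, with a ratio of 0.888 (0.450 to 1.78). The 11 members lower in WT at 0 h were all 170 bp wide, and none was left without the recurring widths. One of them lay 39.0 kb upstream of Slc7a11 (chr3:50286433-50286602), with 3 reads in WT and 13 in RelBko cells, 0.503 and 4.37 RPKM.

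**Figure D3:**
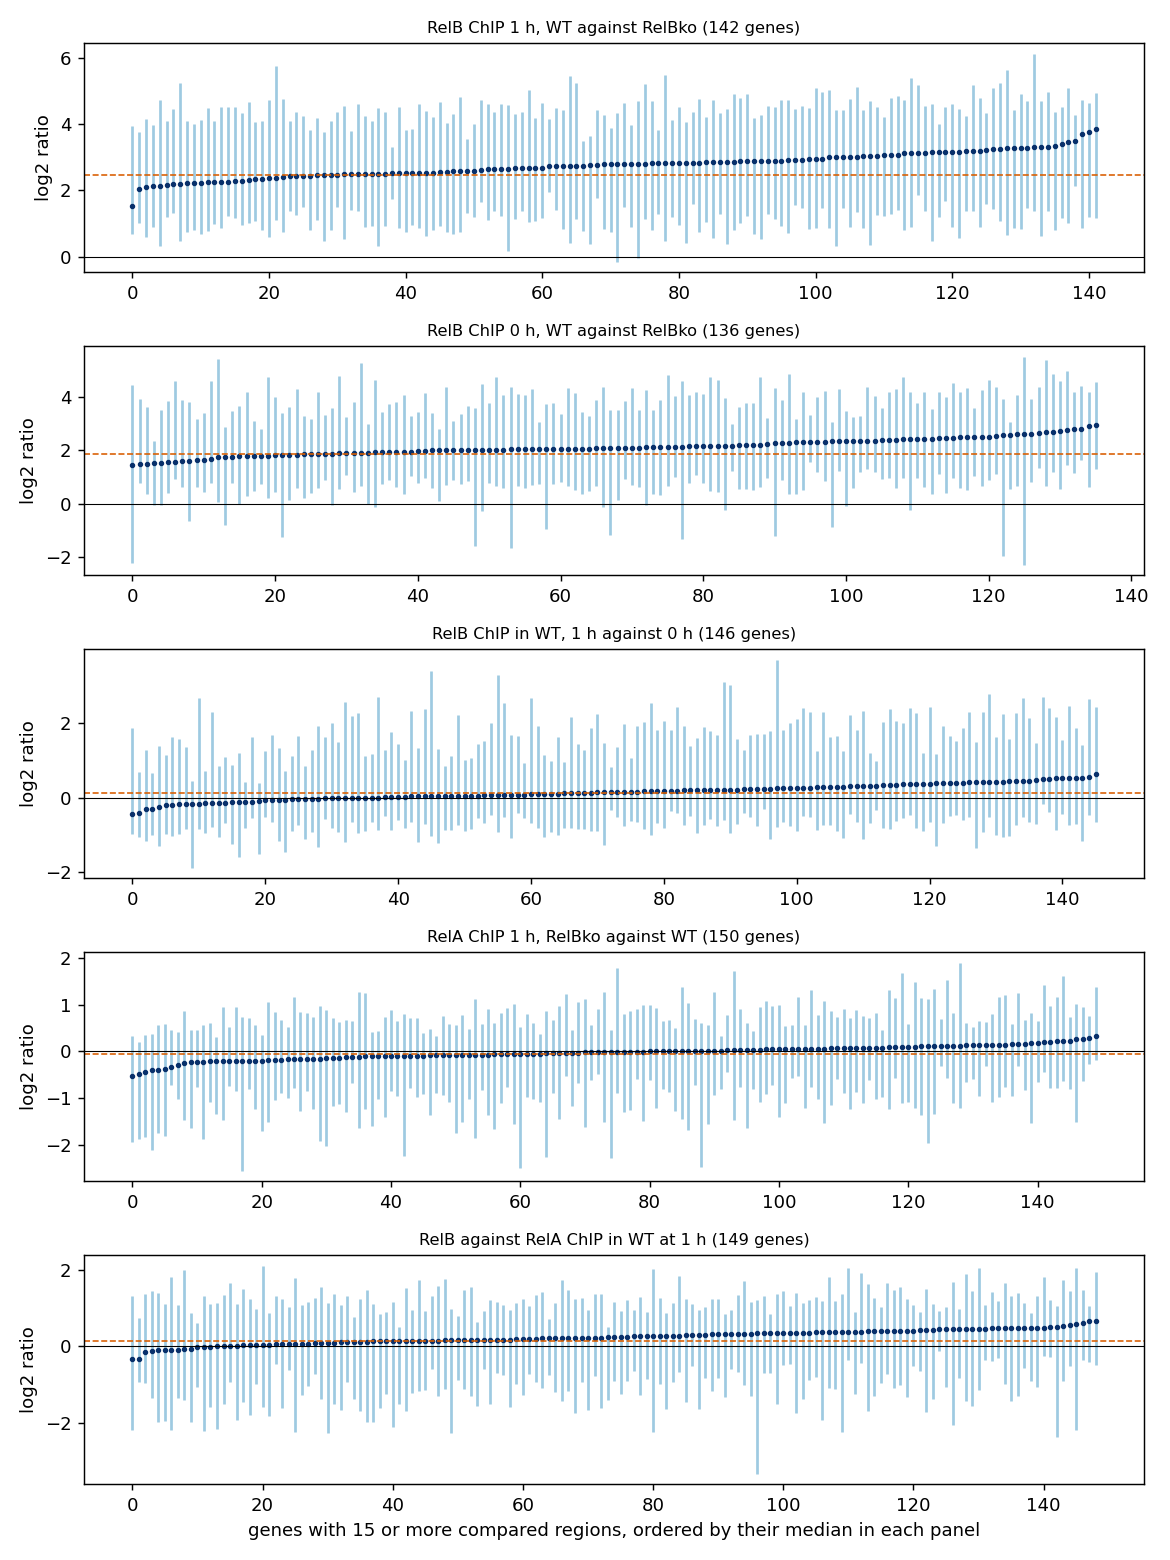
Median log2 ratio (points) and lowest to highest ratio (bars) over the compared regions of each gene with 15 or more of them, ordered by the median in each panel, for the 5 comparisons; the dashed line is the median of all compared regions. In the upper pair of panels the gene medians stay above 0, from 1.54 to 3.85 at 1 h, while in the lower 3 panels most bars cross 0.

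RelB in WT cells changed at a minority of regions 1 h after LPS, more often upwards. Of 3958 compared members 506 were higher at 1 h (12.8%, background 11.0%) and 55 lower (1.39%, background 1.68%), and the median log2 ratio was 0.14 both for members and for all compared regions. Scaled to that median, 389 members were higher (9.83%, background 8.43%) and 105 lower (2.65%, background 3.10%). Without the recurring widths 350 of 3014 were higher (11.6%) and 28 lower. The recurring widths split by direction: of the 221 compared regions of 314 bp 91 were higher and 0 lower, and of the 296 of 308 bp 0 were higher and 23 lower. At least 1 higher region was found in 152 genes and at least 1 lower in 41, both in 29 and neither in 18.

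The highest gene medians for this change were in 3 transcription factor genes and a cytokine gene: Etv6 (0.65), Klf7 (0.57), Il12b (0.55) and the AP-1 gene Fosl2 (0.55). Scaled to the median of all regions they were 0.51, 0.43, 0.41 and 0.40. In Etv6 8 of 29 compared regions were higher and 0 lower, and the promoter did not take part, with a ratio of 0.971 (0.912 to 1.03). An intronic region 43.3 kb into Etv6 (chr6:134028863-134029226) rose from 2.66 to 16.6 RPKM, 6.24-fold (4.30 to 9.30). In Klf7 a region 79.5 kb upstream (chr1:64247280-64247617) went from 5.48 to 37.4 RPKM, 6.81-fold (5.22 to 9.02). In Il12b 3 of 21 regions were higher, such as one 27.1 kb upstream (chr11:44186259-44186656) at 12.6 and 34.6 RPKM, and 1 was lower, 45.0 kb upstream (chr11:44168385-44168692), at 12.04 and 5.14 RPKM. The largest single ratio, chosen after values were seen, lay 73.7 kb upstream of Eea1, an endosomal tether (chr10:95329409-95329860), with 2 reads at 0 h and 99 at 1 h, 61.1-fold (16.5 to 511).

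The lowest gene medians were in Fam46a (-0.44), Arhgap18, a GTPase-activating protein (-0.42), 1700112H15Rik (-0.31) and Mir5130 (-0.30). Only a few of their regions passed the 2-fold threshold downwards: 0 of 18 in Fam46a and 2 of 18 in Arhgap18. In Arhgap18 an intronic region 47.8 kb into the gene (chr10:26539991-26540342) went from 13.0 to 6.00 RPKM, a ratio of 0.460 (0.336 to 0.622). Fam46a had 2 regions that went the other way, 1 of them 32.2 kb downstream (chr9:85188320-85188707), at 5.88 and 23.1 RPKM, 3.93-fold (3.05 to 5.12). Medians above 0 were found in 135 genes and below 0 in 47, and in 94 and 88 after scaling, so the direction of a gene with a median near 0 depends on the scale. Among the lists, 12 of 63 compared regions of AP-1, BACH and MAF factors and 16 of 63 of surface and adhesion genes were higher and 0 lower in either, against 11.0% higher and 1.68% lower over all regions. Scaled, the counts were 8 and 0, and 10 and 1. In surface and adhesion genes 11 of the 16 belonged to Cd44, the hyaluronan receptor. Of 60 compared regions of the phosphodiesterases 8 were higher and 2 lower, with a median of -0.15, and 6 and 2 when scaled.

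RelA at 1 h was set in RelBko against WT cells. Most members differed little. Of 3926 compared members 54 were higher in RelBko cells (1.38%, background 1.30%) and 158 lower (4.02%, background 4.94%), and the median log2 ratio was -0.02 for members and -0.06 for all regions. Without the recurring widths 17 of 2989 were higher and 97 lower. Of the 54 higher regions 31 were 328 bp wide, and of the 158 lower ones 32 were 338 bp, 16 were 314 bp and 12 were 308 bp. Lower regions were found in 97 genes, higher ones in 43, both in 23 and neither in 65. Of 168 compared promoter regions 1 was higher and 1 lower. Member promoters had a median of 20.2 RPKM of RelA in WT cells, against 7.17 RPKM in member introns, so counting error weighs less on them. No share over all promoters of the table is given, and nothing about promoters is read from these counts.

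The lowest gene medians were in Arid1b (-0.52), a subunit of the SWI/SNF remodelling complex, Cd180 (-0.49), Oxr1 (-0.43) and the exchange factor gene Arhgef3 (-0.40). In Arhgef3 7 of 25 compared regions were lower. One of them, 20.4 kb upstream (chr14:27936644-27936993), had 32.6 RPKM of RelA in WT and 9.54 RPKM in RelBko cells, 3.42-fold lower (2.63 to 4.49). RelB in WT cells at that region measured 95.8 and 82.8 RPKM at 0 h and 1 h. In Arid1b 3 of 17 compared regions were lower, such as one 25.2 kb upstream (chr17:4969709-4970085) at 5.28 and 0.997 RPKM, 5.30-fold lower (2.50 to 12.5). In Cd180 4 of 15 were lower, and the lowest ratio (chr13:103510387-103510700) rested on 21 reads in WT and 5 in RelBko cells.

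The lowest single ratio, chosen after values were seen, lay 92.0 kb upstream of Slc7a11, the cystine-glutamate antiporter (chr3:50339321-50339684). RelA there was 5.15 RPKM in WT and 0.459 RPKM in RelBko cells, 11.2-fold lower (3.996 to 43.7), and input was 0.625 RPKM. RelB in WT cells was 28.3 and 23.2 RPKM at 0 h and 1 h. In an intron of Dtnbp1 (chr13:45047744-45048081) RelA was 19.0 and 2.96 RPKM, 6.41-fold lower (4.10 to 10.4), where RelB in WT cells was 25.8 and 37.5 RPKM. Another of the 4 lowest ratios, 80.2 kb from the start of B930025P03Rik (chr8:10802038-10802375), had 28 and 4 reads of RelA, 9.53-fold lower (3.34 to 37.4), and RelB in WT cells was 1.60 and 5.10 RPKM there. The RelB level was not tested against the change of RelA. The largest ratios upwards had few reads: in an intron of Thrb (chr14:18522180-18522507) RelA had 3 reads in WT and 26 in RelBko cells, 6.36-fold (1.95 to 32.8). That region and the others of the 4 highest were all 328 bp wide, the width at which the RelBko RelA library led in 178 of 231 members. The highest gene medians were in Gm20125 (0.34), Setbp1 (0.28), Trib1, a pseudokinase (0.28), and Asap1, an Arf GTPase-activating protein (0.26). Of 27 compared regions of Trib1 0 passed the threshold in either direction. Of the lists, the NF-kB pathway, with Nfkb1 alone, had 0 of 28 regions called in either direction (1 higher when scaled), and so had the phosphodiesterases with 0 of 55. Transcription factors of the myeloid and lymphoid list had 14 of 329 lower and 1 higher. Over all regions 4.94% were lower and 1.30% higher, so lists of this size hold few called regions at that share, and nothing is read from these counts.

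RelB was set against RelA in WT cells at 1 h. The libraries come from different antibodies, so a ratio of 1 does not mean equal amounts of protein, and only differences between regions were read. Of 4073 compared members 283 had a RelB to RelA ratio of 2 or more (6.95%, background 7.21%) and 182 a RelA to RelB ratio of 2 or more (4.47%, background 7.45%). The median log2 ratio was 0.25 for members and 0.16 for all compared regions. Scaled to that median, 157 members were higher (3.85%, background 4.43%) and 250 lower (6.14%, background 9.76%). Without the recurring widths 190 of 3083 were higher (6.16%) and 104 lower (3.37%). Of the 285 compared regions of 338 bp 65 were lower, and of the 221 of 314 bp 62 were higher and 0 lower. The member promoter regions had a median of -0.05 (171 compared), introns 0.26 (2129) and regions between genes 0.27 (1694).

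Both directions occurred inside many genes, with and without scaling. A gene had a median of 22 member regions, so many genes would hold both calls if calls fell evenly over all members. No count for that case was computed, and no mixing beyond it is read from these counts. Of the 182 genes 80 had at least 1 region called each way, 57 only higher ones, 23 only lower ones and 22 neither. Scaled, these counts were 77, 27, 50 and 28, so whether a gene had only higher or only lower regions depended on the scale. At least 2 each way were found in 22 genes, and in 16 when scaled. Foxp1 had 8 higher and 4 lower among 66 compared regions, Slc7a11 6 and 3 of 29, Dock10 3 and 4 of 45, Sgms1 2 and 5 of 44, and Nfkb1 2 and 4 of 30. Scaled, the counts were 5 and 7 in Foxp1, 5 and 3 in Slc7a11, 2 and 4 in Dock10, 2 and 7 in Sgms1, and 1 and 4 in Nfkb1. In Slc7a11 the region 92.0 kb upstream described above had a RelB to RelA ratio of 4.50 (3.12 to 6.69). An intronic region 46.6 kb into the same gene (chr3:50200738-50201077) had 2.07 RPKM of RelB and 11.2 RPKM of RelA, a RelA to RelB ratio of 5.41 (3.24 to 9.42). The gene's strongest region (chr3:50206334-50206671) had 118 and 69.5 RPKM.

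**Figure D4:**
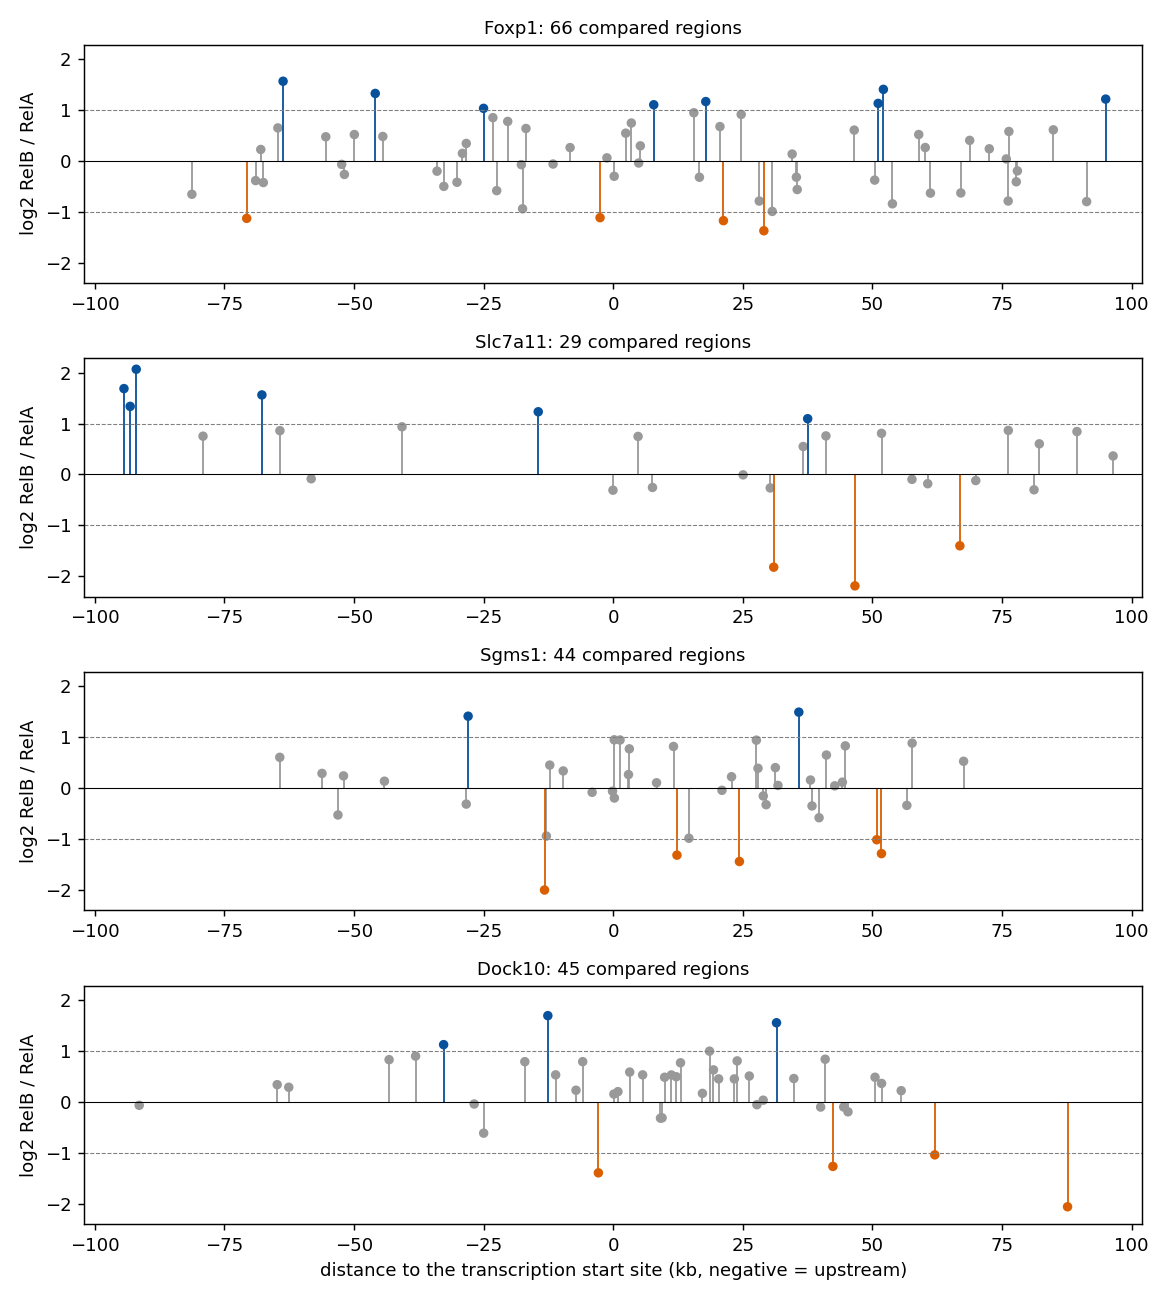
Log2 ratio of RelB to RelA in WT cells at 1 h for each compared region of Foxp1, Slc7a11, Sgms1 and Dock10, by its distance to the nearest start site in kb; blue marks regions at or above 2-fold towards RelB, orange those towards RelA, grey the rest. Regions of both colours lie in each gene, 8 blue and 4 orange in Foxp1, or 5 and 7 when scaled.

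By gene, the ratio was highest in Sema6d (0.67), Il12b (0.67), Gm34184 (0.62) and Slc7a11 (0.60) and lowest in Tbc1d22a (-0.33), a Rab GTPase-activating protein, Dip2c (-0.32), Tet2 (-0.15), a DNA demethylation enzyme, and Hivep2 (-0.11), a zinc finger protein known to bind kB-like enhancers. Scaled, the 4 high medians were 0.52, 0.51, 0.46 and 0.45 and the 4 low ones -0.49, -0.48, -0.30 and -0.26. In Il12b only 1 of 21 compared regions was called, higher, and 0 when scaled, so its median came from many small ratios, from -0.42 to 1.07. In Tbc1d22a 4 of 19 were lower, such as one 10.3 kb upstream (chr15:86034394-86034731) at 3.02 RPKM of RelB and 15.6 RPKM of RelA, a RelA to RelB ratio of 5.18 (3.38 to 8.16). In Dip2c 0 of 18 were called in either direction, and 1 was lower when scaled. On log2(RPKM + 0.5) the lowest single ratio, chosen after values were seen, was 87.1 kb upstream of Prdm1, the Blimp-1 repressor (chr10:44265493-44265830). RelB there was at 0.937 RPKM, under the input of 1.57 RPKM, and RelA at 14.1 RPKM, a ratio of 0.0663. By RPKM alone a region assigned to Mir21c (chr8:130768015-130768352) was lower, at 0.0516, with 2 reads of RelB and 24 of RelA. Cytokine and receptor genes had 2 of 46 regions higher and 0 lower, with a median of 0.45, and nuclear receptors 9 of 92 higher and 3 lower, with a median of 0.44. ETS and RUNX factors had 2 of 83 higher and 1 lower, with a median of 0.15. Over all regions 7.21% were higher and 7.45% lower. Scaled, the 3 lists had 0 and 1, 5 and 4, and 0 and 1 called, with medians of 0.30, 0.29 and -0.01.

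Differences between the regions of 1 gene grew with the distance between them, mostly for the level and for RelB against RelBko. Pairs of regions up to 2 kb apart differed by a median of 0.59 in log2 RelA level (969 pairs), pairs 2 to 10 kb apart by 1.03 and pairs over 30 kb apart by 1.36 (41868 pairs). For the RelB WT to RelBko ratio at 1 h the medians were 0.57 up to 2 kb and 0.94 over 30 kb, and at 0 h 0.58 and 0.82. The other ratios changed less with distance: 0.50 and 0.58 for RelB at 1 h against 0 h, 0.31 and 0.40 for RelA in RelBko against WT, and 0.43 and 0.54 for RelB against RelA. Pairs share regions and are not independent, and a fragment can add reads to both of 2 close regions. By genes, the share of variance between genes was 8.64% to 12.01% for the 5 ratios. For ratios, as for levels, most of the variance lay among the regions of a gene, which is partly built into the measure.

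**Figure D5:**
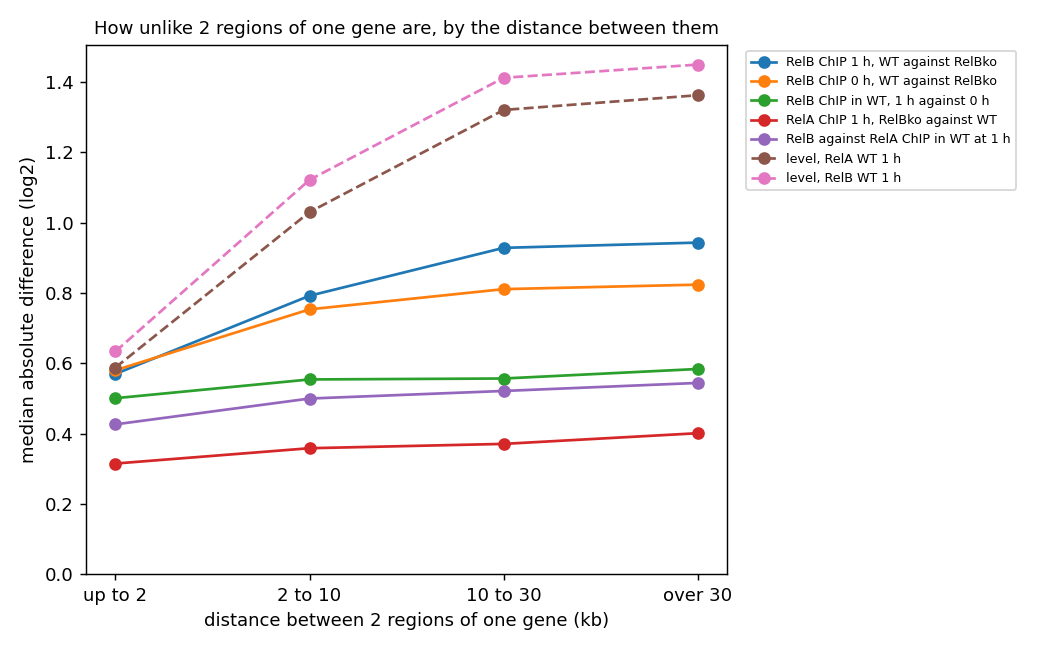
Median absolute difference of 2 regions of the same gene, in log2 units, by the distance between them in kb, for the 5 ratios (solid) and for the levels of RelA and RelB in WT cells at 1 h (dashed). The level of RelA climbs from 0.59 up to 2 kb to 1.36 over 30 kb, and the ratio of RelA between RelBko and WT from 0.31 to 0.40.

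The WT RelB library at 1 h enters 3 of the 5 comparisons and the WT RelA library 2, so changes of a region in different comparisons are not independent of each other.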

How the data were processed

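The data are ChIP-seq levels in mouse BMDCs: 6 immunoprecipitated libraries and 1 input, 1 library per group. The authors deposited 1 table of regions with RPKM per library, and its coordinates are on mm9. The submitters' processing notes name HISAT2, HOMER and bedtools, without versions or settings, and the sources used here do not name the region caller. The extraction text names only a RelA antibody, while the RelB samples are labelled with RelB antibodies.

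Rows were counted per gene over the whole table, and regions within 100 kb of the TSS were kept for genes with 30 or more. The members and lists were chosen with earlier results of these data known. RPKM times length fell on whole multiples of the smallest value in 100% of the values of each library (tolerance 0.01), which gave reads and library totals. No region had fewer than 1 read in any library, so read numbers may be 1 too high. Ratios were taken on log2(RPKM + 0.5), which understates differences at low levels. Highest and lowest ratios of genes and single regions were ranked on that scale. Single folds are ratios of RPKM with exact Clopper-Pearson 95% intervals. With 1 library per group no test could be run.

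The rule for named genes took the 10 genes with most regions, the 4 highest and 4 lowest medians per comparison and the 4 largest and smallest spreads among genes with 15 or more regions, and up to 3 genes per list. Regions at the extremes of all members, and genes called in both directions, were named after their values were seen. Alternatives were pseudocount 1, no filter, scaling, 1 read off, 10 kb or no distance limit, 40 or more regions, a 1.5-fold call, enrichment at 4 RPKM and 4-fold, and, added after seeing the data, leaving out 5 recurring widths. The 2-fold call was checked on simulated reads for 1 pair of libraries, WT RelB and WT RelA at 1 h, with known 4-fold changes. The interval formula was checked on 1 example. The RelBko RelB libraries, the scaling and the values by gene were not part of that check. Python 3.11.15, numpy 2.4.6, pandas 2.3.3, scipy 1.17.1 and matplotlib 3.10.9 were used.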

Additional observations from a re-analysis of the deposited data

Results flagged for a closer look

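As deposited, the median change of RelB ChIP from 0 h to 1 h had opposite signs in the 2 genotypes. In RelBko cells the target of the antibody should be missing, so the value there is not read as a change of RelB. Over member regions compared in RelBko cells (1242) the median log2 change was -0.85, and over those compared in WT cells (3958) it was 0.14. Over those regions of the whole table that passed the same filter the RelBko value was -0.93 and the WT value 0.14. The members thus moved much as the whole table did, and the sign in WT cells depends on how the libraries are scaled. Of the 1242 regions 1194 were enriched at 0 h, so they entered mainly through the time at which they were high, and a fall was largely built into the choice. Over all 4322 members with no filter the medians were -0.42 in RelBko and 0.15 in WT cells, and over all regions -0.43 and 0.14. The difference was not tested, since each value rests on 1 library per time. The RelBko libraries differed in the share of their reads in member regions, 0.360% at 0 h and 0.227% at 1 h, and the part of this in the value was not tested.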

How the results depend on the processing

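Of 100 recomputed counts of called member regions 46 stayed within 1.5 times the main count and 54 did not; taking 1 read off each value moved none of them. Other distance limits or gene thresholds change how many regions enter. Counts are given as higher and lower. RelB in WT against RelBko cells at 1 h gave 957 and 403 when scaled, 4 lower without a filter, 684 higher within 10 kb, 5939 and 4 with no distance limit, and 1507 higher for genes with 40 or more regions. At 0 h it gave 742 and 216 when scaled, 25 lower without a filter, 605 and 1 within 10 kb, 5303 and 18 with no limit, 1365 and 3 at 40 or more regions, 2 lower at 4 RPKM and 4-fold, and 0 lower without the recurring widths. RelB at 1 h against 0 h gave 105 lower when scaled, 81 and 3 within 10 kb, 821 and 110 with no limit, 188 and 26 at 40 or more, 998 and 332 at 1.5-fold, 36 lower at 4 RPKM and 4-fold, and 28 lower without the widths. RelA in RelBko against WT cells gave 31 and 99 with a pseudocount of 1, 7 and 11 within 10 kb, 95 and 270 with no limit, 23 and 53 at 40 or more, 261 and 481 at 1.5-fold, 27 and 67 at 4 RPKM and 4-fold, and 17 and 97 without the widths. RelB against RelA gave 157 higher when scaled, 40 and 30 within 10 kb, 524 and 324 with no limit, 100 and 62 at 40 or more, 1029 and 430 at 1.5-fold, 111 lower at 4 RPKM and 4-fold, and 104 lower without the widths. Except where fewer or more regions entered or the threshold itself changed, the cause was not tested. With 1 library per group no replicate could be left out. No paired analysis was possible because each group holds 1 library. The RelBko RelB libraries had a median of 11 reads per member at 0 h and 8 at 1 h, which limits the precision of their ratios.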
